A study of Mus musculus with 4 samples.

Results

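The nuclei described here carry class 4 in the deposited assignment, which gave each of 7846 nuclei one of 14 classes. Class 4 held 476 nuclei: 132 of 882 in fetal library 1, 338 of 1695 in fetal library 2, 3 of 2465 in adult library 1 and 3 of 2804 in adult library 2. All libraries came from mammary epithelium of wild-type CD1 mice, an outbred strain, sorted as EpCAM+ and negative for the lineage markers (Lin-), with no treatment or transgene named. The fetal group was embryonic day 18 and the adult group 8 weeks of age, each with 2 libraries labelled as biological replicates; how many animals were pooled is not given in the sources used here. Nuclei were profiled by single-nucleus ATAC-seq, in which the Tn5 transposase inserts barcoded adapters into open chromatin, after combinatorial indexing in plates. Fetal and adult nuclei were tagmented in separate wells and libraries, so stage and any batch difference between those preparations cannot be told apart.

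Basal cells form the outer layer of the mammary ducts, lie on the basement membrane and, in the adult gland, mature into contractile myoepithelium. p63, the product of Trp63, is the transcription factor that sets the basal state of stratified epithelia, and keratin 5, keratin 14, laminin and hemidesmosome genes are typical of the layer. In the late fetal gland the epithelium is a rudiment in which basal and luminal programs are still being set apart, and a motif score or an open region in a nucleus reports only chromatin, not RNA or protein.

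Reads assigned to the nuclei numbered between 6028168 and 19304830 per library, no barcode was shared between libraries, and the number of reads of every nucleus equalled its deposited depth. Class 4 nuclei had a median depth of 6582 reads (range 2016 to 43856), and 285 of the 476 lay at or above the median of all nuclei, 5424.5 reads. The summed reads of class 4 were 971201 in fetal library 1 and 3108478 in fetal library 2, so values of fetal library 1 carry the larger counting error. The classes had been made from the accessibility of the same nuclei, so differences of class 4 from other classes are given as descriptions and no test of them was made. Adult classes 1 and 8 are called basal here for their Krt5 and Trp63 reads and Trp63 motif scores, and adult classes 2, 3, 7 and 11 luminal for their Krt18 reads; adult classes 6, 10 and 14 were left out of comparisons with these. Class 10, of 82 and 61 nuclei, also had Krt18 reads (53.3 CPM against 43.1 CPM in class 11), and its addition to the luminal side is given where it bears on a result. A feature is called past the fold where its log2 difference, computed on CPM (reads of a feature per 1000000 reads of the summed nuclei) plus 2, was at least 1 in the same direction in both fetal libraries.

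Class 4 made up 14.97% of the nuclei of fetal library 1 (95% exact binomial interval 12.7 to 17.5) and 19.94% of fetal library 2 (18.1 to 21.9). In the adult libraries it made up 0.122% (0.0251 to 0.355) and 0.107% (0.0221 to 0.312). These intervals cover counting error only. They do not overlap between fetal and adult libraries, and those of the 2 fetal libraries do not overlap with each other either. The spread between replicates is thus wider than the intervals show. With 2 libraries against 2, an exact permutation test cannot give a two-sided p under 0.333, so none is given. Among the larger fetal classes, class 9 held 385 and 652 nuclei, class 5 held 201 and 337, and class 12 held 92 and 247. In the adult libraries class 9 made up 0.365% and 0.357%, and classes 5 and 12 held 0 nuclei. The split by stage is therefore not particular to class 4. The 6 adult nuclei of class 4 had depths from 2180 to 16304 reads and Trp63 motif scores from 0.59 to 3.06, all above 0. The class was made from the same accessibility, so these scores are no check of their identity. Their median share of reads in distal regions was 30.5% in adult library 1 and 20.1% in adult library 2, against 43.1% and 42.4% in fetal class 4. Their median share in promoter regions was 20.3% and 6.86%.

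The share of a nucleus's reads that fell in promoter regions had a median of 20.6% in fetal library 1 and 19.7% in fetal library 2 in class 4. It was 24.7% and 23.2% in class 9, 24.1% and 22.3% in class 12, and 25.8% and 24.2% in class 5. Class 4 was therefore the lowest of these 4 fetal classes in both libraries. The share in distal regions was 43.1% and 42.4% in class 4 against 41.8% and 42.3% in class 9. The part of this lower promoter share in the gene and promoter differences given below was not tested. The median log2 difference of all tested features against the other fetal nuclei was -0.17 for genes, -0.27 for promoter regions and -0.14 for distal regions.

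The class's 4 marker genes were described by reads over the gene and 2000 bases on either side. They were chosen with earlier results of these data known, so they are no check of the label. Nrg1 (chr8:31807452-32891609, mm10) encodes neuregulin 1, a ligand of the receptors ERBB3 and ERBB4. Its reads in class 4 were at 1004 CPM in fetal library 1 and 898 CPM in fetal library 2, against 343 and 383 CPM in the other nuclei, log2 differences of 1.54 and 1.22. Both values of class 4 lay above every value of the other 13 classes, each read in the 2 libraries of its main stage. In the order of class means class 4 (951 ± 75.2 CPM, SD, n = 2) came before adult classes 8 (609 ± 38.0) and 1 (602 ± 79.1) and fetal class 12 (598 ± 107), and these last 3 did not differ beyond their spread. Class 9 stood at 357 ± 55.1 CPM.

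Nipal4 (chr11:46148155-46166359) encodes a magnesium transporter-like protein of epidermal barrier formation. It was at 49.4 and 45.4 CPM in class 4 against 18.2 and 19.0 CPM in the other fetal nuclei, log2 differences of 1.35 and 1.17. In the order of class means it was highest in adult class 8 (68.9 ± 12.2 CPM, SD, n = 2), followed by adult class 1 (48.7 ± 15.9), class 4 (47.4 ± 2.87) and class 12 (36.5 ± 2.22). Among nuclei at or above the median depth the difference (mean 1.12) was not past the fold in both libraries. The values of class 4 and class 1 overlapped, and those of class 12 lay below both values of class 4. Class 9 was lower still at 17.7 ± 1.42 CPM.

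Tslp (chr18:32815383-32819799) encodes thymic stromal lymphopoietin, a cytokine of epithelial barriers. It was at 32.9 and 32.8 CPM in class 4 against 15.0 and 14.02 CPM in the other fetal nuclei, log2 differences of 1.04 and 1.12. Class 12 (40.7 ± 21.1 CPM, SD, n = 2) and class 6 (33.3 ± 3.09, adult libraries) overlapped with class 4, and class 8 followed at 15.2 ± 2.69. The difference lay in the flanks of the gene: over the gene span alone the mean log2 difference was -0.27. It was also not past the fold with a pseudocount of 5 CPM (0.96) or against the averaged log2 levels of the other fetal classes (1.11). The promoter region chr18:32813560-32814559, 824 bases outside the gene, had 25.7 and 29.6 CPM in class 4 against 10.7 and 8.6 CPM. In class 12 this region had 46.1 and 21.6 CPM, which overlapped with class 4.

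Trp63 (chr16:25683763-25892088) was at 137 and 162 CPM in class 4 against 94.3 and 93.4 CPM in the other fetal nuclei, log2 differences of 0.53 and 0.78, and so was not past the fold. Both values of class 4 lay above those of class 9 and below the pooled adult basal classes (247 and 211 CPM). Taken singly, class 1 was above class 4 at 281 and 268 CPM, while class 8, at 209 and 151 CPM, overlapped with it. Class 12, at 154 and 157 CPM, overlapped with class 4. Counted with the flanks, all 4 marker genes were higher in class 4 than in the other fetal nuclei in both libraries, with 3 of 4 past the fold. Over all tested genes these shares were 19.5% and 0.13%. The markers were chosen with these data known, so this count is no check of the label.

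**Figure D1:**
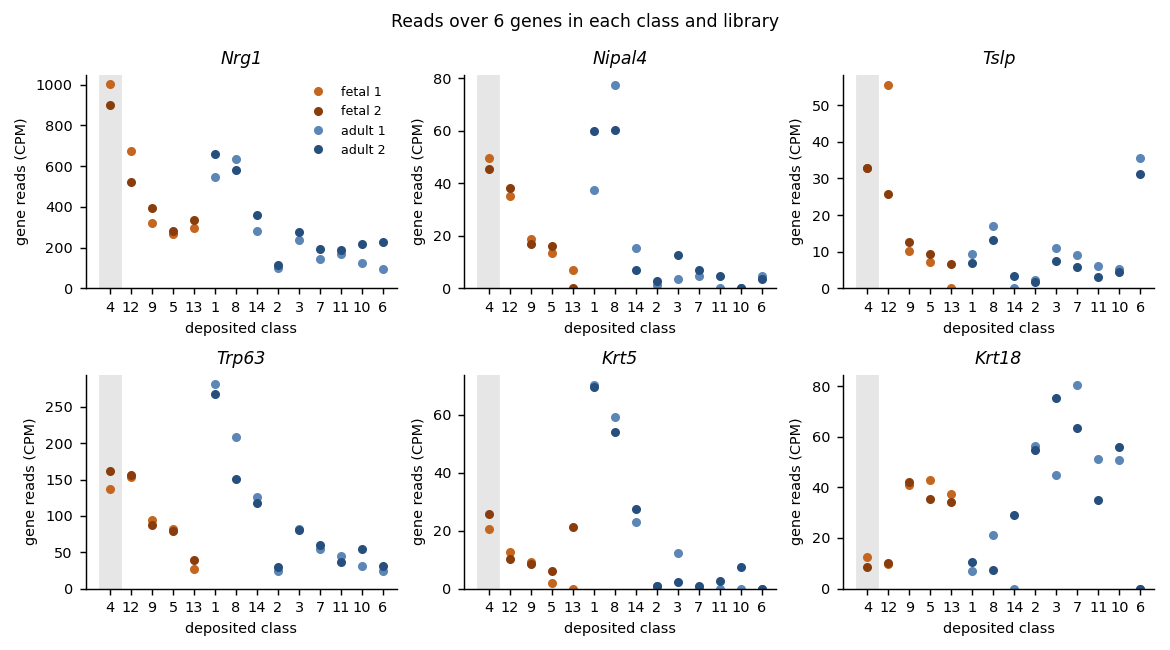
Reads over the gene with 2000 bases on either side, in CPM (linear axis from 0), for 6 genes in each of the 14 deposited classes; each point is the summed nuclei of 1 library, orange for fetal and blue for adult, and class 4 is shaded. Nrg1 is highest in class 4, Trp63 and Krt5 have their highest means in adult classes 1 and 8, and Krt18 in classes 4 and 12 lies below classes 9, 5 and 13.

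Motif scores were compared first. The deposited table holds, for each nucleus, a deviation score for 427 motifs, positive where regions with the motif are more open than in the average nucleus. Against the other nuclei of the same fetal library, 12 motifs were at least 1 unit higher in class 4 in both libraries (2.81% of 427) and 10 at least 1 unit lower (2.34%). The split turned among nuclei at or above the median depth (13 and 19) and with fetal library 2 left out (12 and 16). Since the classes come from the same accessibility data, nothing is read from these counts. The median difference over all motifs was -0.08.

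The p53 family motifs stood highest. The mean Trp63 motif score of class 4 was 2.89 in fetal library 1 and 2.81 in fetal library 2, against -0.42 and -0.17 in the other nuclei, a mean difference of 3.15 ± 0.23 (SD, n = 2). Trp73, the motif of the p63 relative p73, differed by 3.39 ± 0.14, and Trp53, the motif of p53 itself, by -0.06 ± 0.04. Both fetal basal-leaning classes and both adult basal classes were high for Trp63: class 12 had 2.23 and 2.53, class 1 had 3.15 and 3.01, and class 8 had 3.98 and 3.78. Class 9 had -0.78 and -0.71. Class 4 ranked behind classes 8 and 1 for Trp63 among 12 classes, those with at least 50 nuclei in each library of their stage (classes 13 and 14 had fewer), and its values lay below those of both adult basal classes and above those of class 12.

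Single nuclei of class 4 varied around these means. The Trp63 score was above 0 in 128 of 132 nuclei of fetal library 1 and in 319 of 338 of fetal library 2. Its 10th, 50th and 90th percentiles were 0.69, 2.81 and 5.61 in fetal library 1 and 0.55, 2.66 and 4.89 in fetal library 2. In all, 90.2% and 86.4% of class 4 nuclei lay above the 90th percentile of class 9 in the same library. Depth moved with the score: nuclei at or above the series' median depth averaged 3.51 and 3.40, and shallower ones 2.01 and 1.91. The part of depth in the spread between nuclei was not tested.

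AP-1 motifs, bound by FOS and JUN dimers and opened by growth factor and stress signals, made up the other high group. In the AP-1 list, 8 of 11 motifs were past 1 unit higher, with a list median of 1.90, among them Smarcc1 (2.91), Fos (2.77), Fosb (2.38) and Jund (1.90). Bach1 (2.33), Bach2 (2.25), Junb (1.87) and Batf (1.22) were the rest, and outside the list Nfe2l2 (1.78) and Batf3, identical to Batf, made up the 12. Smarcc1, Bach1, Bach2 and Batf are columns of the list named for genes other than FOS and JUN members. The level of class 4 itself was near 0: the Fos score averaged 0.02 and -0.03. The larger fetal classes 5, 12 and 9 lay below it, class 5 at -5.45 and -6.39, class 12 at -3.76 and -4.79, and class 9 at -1.09 and -0.97. Among 12 classes, class 4 ranked sixth for Fos, and it differed by -0.26 from the adult basal classes together.

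The motifs lowest in class 4 were a grainyhead, a nuclear factor I, several forkhead and several E-box motifs. Grhl1, the motif of a grainyhead factor of epithelial barrier genes, averaged -1.42 and -1.39 against 0.28 and 0.27 in the other fetal nuclei, a difference of -1.68 ± 0.03 (SD, n = 2). Nfix, a nuclear factor I motif, differed by -1.33 ± 0.11. Foxc1 differed by -1.20, Foxi1 by -1.08, and Foxc2 and Foxs1, which hold identical scores, by -1.19. The E-box group also lay low, with Id3 and Id4 (identical) at -1.25, Mesp1 at -1.12 and Snai2 at -1.08. Short of 1 unit in at least 1 library were Foxa1, the motif of a factor of hormone-sensing luminal cells (-1.06), Foxj1 (-1.02), Elf5, the motif of a luminal progenitor factor (-0.998 ± 0.06), and Ehf, another epithelial ETS factor (-0.94 ± 0.03). None of the 4 motifs of the luminal ETS list, nor of the 2 of the FOXA and GATA list, was past 1 unit in both libraries, with list medians of -0.96 and -0.57.

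Of the motif families known from basal and stem-like cells, SOX, TEAD and TCF and LEF were close to the other fetal nuclei. Across 7 SOX motifs the differences ran from -0.28 to 0.17, and across 2 TEAD motifs from -0.06 to 0.06. The 4 TCF and LEF motifs ran from -0.17 to 0.12. The 3 RUNX columns lay lower, with a median of -0.43 against -0.08 over all motifs. The 6 motifs of the E-box and zinc finger list, which holds Snai2, ran from -1.08 to -0.15 with a median of -0.69. The 3 motifs of contractile regulators ran from -0.39 to 0.18 with a median of -0.29; Srf, the serum response factor of contractile genes, was the highest of them and Mef2c the lowest.

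Against class 9, the largest fetal class, only Trp73 (3.95) and Trp63 (3.60) were past 1 unit higher (0.468% of 427), and 15 were past 1 unit lower (3.51%), including Grhl1 (-1.69), Id3 (-1.66), Elf5 (-1.24) and Nfix (-1.28). Against class 12, which shares the high Trp63 score, 12 motifs were higher (2.81%) and 0 lower (0%). These 12 were AP-1-type motifs, with Smarcc1 at 4.37, Fos at 4.27 and Jun at 1.36, while Trp63 differed by 0.48. Against the adult basal classes 1 and 8 together, 1 motif was higher in every pairing of libraries (0.234%) and 2 were lower (0.468%). The higher one was Nfix, by 1.36 (1.14 to 1.59 over the 4 pairings), and the lower ones were Runx1 and Runx3, which hold identical scores and differed by -1.35 (-1.40 to -1.31). Sox9 differed by 0.88 (0.76 to 1.01) and Tead4 by -0.83 (-0.996 to -0.67), short of 1 unit in at least 1 pairing.

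**Figure D2:**
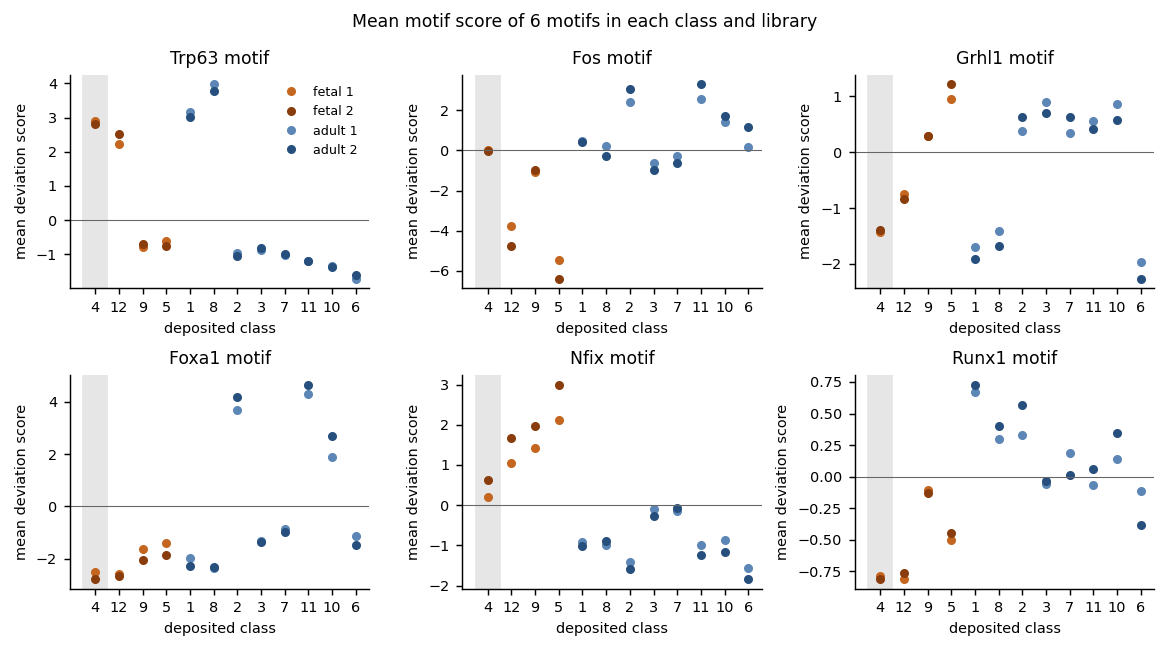
Mean deviation score of 6 motifs per class and library (linear axis, the line marks 0); points are libraries, orange for fetal and blue for adult, and class 4 is shaded. Trp63 scores are high in classes 4, 12, 1 and 8, Fos scores of class 4 lie near 0 while those of classes 12 and 5 lie between -6.39 and -3.76, and Runx1 scores of class 4 lie below those of the adult basal classes 1 and 8.

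Reads over genes were then compared with the other nuclei of the same fetal library. Of 16093 genes with at least 5 reads expected in class 4 of each library, 21 were past the fold higher (0.13%) and 67 lower (0.416%), and the log2 differences of the 2 libraries correlated across genes with r = 0.391; genes are not independent replicates. The split depended on scaling: with the differences centred on their median, 52 were higher and 31 lower. The counts also rest on requiring both libraries: with fetal library 1 left out 138 were higher and 291 lower, and with fetal library 2 left out 236 and 1117. Reads of a flank can count for 2 neighbouring genes, and how reads from near-identical gene copies were placed is not given in the sources used here.

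Among the 10 highest genes by the smaller of the 2 differences, Pou2af1, a coactivator of POU factors best known from B cells, came first. It was at 44.3 and 44.1 CPM against 10.1 and 13.2, log2 differences of 1.94 and 1.60, and at 35.9 and 24.3 CPM in the adult basal classes against 2.7 and 3.5 in the adult luminal classes. Krt5, the keratin of basal cells, was at 20.6 and 25.7 CPM against 7.1 and 8.5, log2 differences of 1.31 and 1.40. Pglyrp3, a peptidoglycan recognition protein of epithelia, was at 19.6 and 13.5 CPM against 3.8 and 4.2. Oca2, a melanosome transporter, was at 70.0 and 71.1 CPM against 24.3 and 30.5. Pou2af1 and Oca2 kept their place past the fold under all 11 alternatives tried, Pglyrp3 and Krt5 under 9. Some of the 11 could not fail for a gene past the fold: leaving out a library, dropping the filter, and a pseudocount of 0.5 CPM. The others of the 10 were Gm30732, Serpina3i, Nrg1, Nipal4, Tmem174 and Glra3, with mean log2 differences between 1.25 and 1.53. Serpina3i belongs to a family of close copies and is uncertain for that reason. The remaining genes past the fold included Cav1, the caveolar coat protein, at 141 and 147 CPM against 59.7 and 69.3, and Lep, which encodes leptin, at 12.4 and 10.9 CPM against 4.7 and 3.5. Cav1 and Lep were chosen for mention after their values were seen. Pglyrp3, Serpina3i, Tmem174 and Lep passed the filter of 5 expected reads only because class 4's own reads count in it.

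The 10 lowest were taken by the same measure among genes with at least 50 reads in class 4, or as many expected there from the level of the other nuclei, and included a luminal keratin and a tight-junction gene. Krt18, the simple-epithelium keratin, was at 12.4 and 8.4 CPM against 35.8 and 33.6, log2 differences of -1.40 and -1.78. Marveld2 encodes tricellulin, a tight-junction protein, and was at 12.4 and 13.8 CPM against 48.3 and 39.0. Spib, an ETS factor, was at 8.2 and 9.7 CPM against 37.4 and 30.3. Nupr1, a small stress-induced chromatin protein, had the largest difference of the 10, -2.64 and -2.33, from 2 and 10 class 4 reads. Over the gene span alone Nupr1 (-1.50) and Spib (-0.82) were not past the fold. The other 6 (Prr15l, Tmem265, Bspry, Atp5o, Lrrc26 and Gm33887) had mean differences between -1.81 and -1.46.

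**Figure D3:**
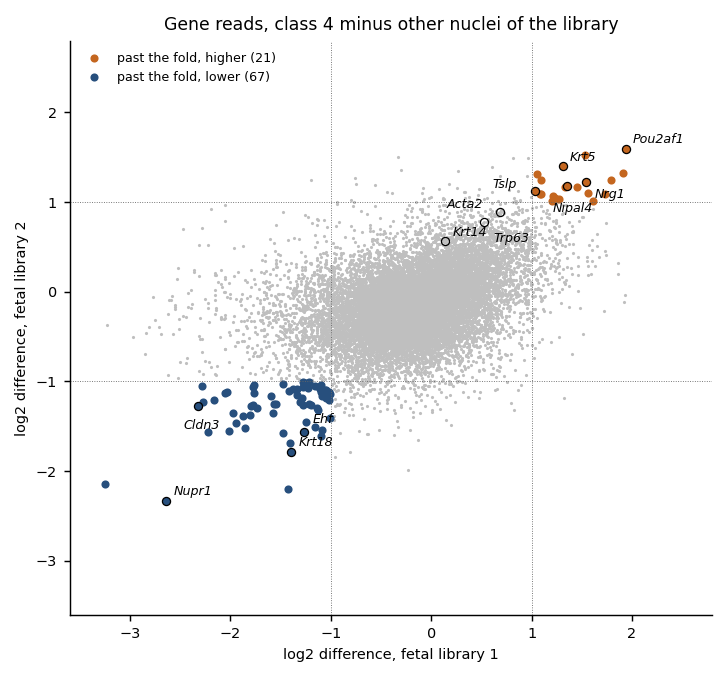
Log2 difference of gene reads between class 4 and the other nuclei, fetal library 1 on the x axis and fetal library 2 on the y axis, for 16093 tested genes; dotted lines mark differences of 1 and -1. The 21 genes past the fold higher lie at upper right with Nrg1, Nipal4, Krt5 and Pou2af1, and the 67 lower at lower left with Krt18, Cldn3 and Ehf, while Trp63, Acta2 and Krt14 lie inside the dotted lines.

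Gene lists were read against these shares. Of the basal keratins, 5 of 7 were tested and 1, Krt5, was past the fold higher, with a list median of 0.35 against -0.17 over all genes. Krt14, its usual partner, was at 44.3 and 47.0 CPM against 39.9 and 31.2, log2 differences of 0.14 and 0.56. Krt17 was at 55.6 and 32.2 CPM against 26.7 and 21.4. Of 12 basal transcription factors none was past the fold in either direction (median 0.12). Irx4 was at 37.1 and 37.6 CPM against 14.4 and 25.4, and Snai2, the EMT repressor Slug, at 48.4 and 40.5 against 31.4 and 31.6. Sox9 and Sox10 had lower values than the other nuclei, Sox10 at 48.4 and 49.5 CPM against 70.8 and 75.7.

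The contractile genes of myoepithelium had a median of 0.12 over 12 tested members, none past the fold. Acta2, smooth muscle actin, was at 44.3 and 57.9 CPM against 26.7 and 30.3, log2 differences of 0.69 and 0.89. Myh11, smooth muscle myosin, was at 30.9 and 35.4 CPM against 28.9 and 30.7. Oxtr, the oxytocin receptor that triggers contraction, was at 16.5 and 34.1 CPM against 26.5 and 29.2, so its libraries went opposite ways. Of 16 hemidesmosome and basement membrane genes none was past the fold (median 0.17). Col4a1, a chain of type IV collagen, had differences of 1.24 and 0.98, and Lama3, a laminin chain of the basement membrane, had 1.00 and 0.93, just short of the fold in fetal library 2.

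Of 13 ErbB ligands and receptors, Nrg1 was past the fold (median 0.41). Among the receptors, Erbb4 was at 142 and 144 CPM against 96.7 and 113, Egfr at 148 and 181 against 121 and 124, and Erbb3 at 129 and 125 against 169 and 169. Of the Notch list, 14 members, none was past the fold, the median was -0.54 and 11 were below 0 in both libraries, as were 48.8% of all tested genes. Notch1, the receptor tied to luminal fate, was at 79.3 and 90.1 CPM against 188 and 158, log2 differences of -1.22 and -0.79. The ligands Jag1 (0.44 and 0.45) and Dll1 (0.52 and 0.30) were above 0 in both. The Wnt list had a median of -0.05 over 15 members, the embryonic mammary signals -0.07 over 14, the TEAD and YAP genes -0.10 over 10 and the EMT genes 0.13 over 9, none past the fold. In the embryonic list, Edaradd, the adaptor of the ectodysplasin receptor, had differences of 0.99 and 1.06.

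The epidermal barrier list had 1 of 14 tested past the fold higher, Nipal4 (median 0.08), and the list of epithelial cytokines 1 of 9, Tslp (median 0.02). Of the defining genes of cornified epidermis, Krt1 was at 10.3 and 14.2 CPM in class 4 against 8.1 and 8.2 in the other fetal nuclei, short of the fold, and its class mean was second to that of class 14 among the 14 classes. Flg was listed with 0 reads in class 4 of both libraries, Krt10 was at 4.1 and 12.9 CPM against 10.5 and 13.5, and Lor at 21.6 and 16.4 against 22.2 and 19.8.

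Luminal lists lay on the other side. Of 7 luminal keratins and claudins, 2 were past the fold lower, Krt18 and Cldn3, and all 7 were below 0 in both libraries (median -1.11), against 48.8% of all tested genes. Cldn3, a tight-junction claudin, was at 15.4 and 28.6 CPM against 85.0 and 72.0, and Krt8 at 54.6 and 52.8 against 83.3 and 90.8. Of the luminal progenitor list 5 of 9 were tested, 1 was past the fold lower, Ehf, and all 5 were below 0 in both libraries (median -0.80), against the same 48.8%. Ehf was at 39.1 and 38.0 CPM against 97.3 and 116, and Elf5 at 25.7 and 23.5 against 44.3 and 44.1. The hormone-sensing luminal list had a median of -0.18 over 8 members, none past the fold, with Esr1, the estrogen receptor, at 103 and 104 CPM against 82.7 and 94.5. Against the mean of the log2 levels of the other fetal classes, in place of their pooled reads, Krt18 (-1.23), Cldn3 (-1.47) and Ehf (-0.99) were no longer past the fold in both libraries.

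Markers of other cell types were counted in the same way. None of the tested members of the stromal (8), endothelial (7), immune (6), pericyte (6), neural crest and melanocyte (9) or hair follicle (8) lists was past the fold. Of all tested genes only 0.13% were past the fold higher and 0.416% lower, so this says little about these cell types. The summed level of the stromal list was 149 and 195 CPM in class 4, 174 and 181 CPM in the other nuclei, and 663 and 610 CPM in the fetal nuclei of class 6. The summed immune list was 87.5 and 96.8 CPM in class 4 against 90.2 and 81.6 CPM in the other nuclei. Doublets were not marked here. The summed luminal keratin and claudin list, 168 and 141 CPM in class 4, was 422 and 406 CPM in class 9 and 145 and 137 CPM in class 12.

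**Figure D4:**
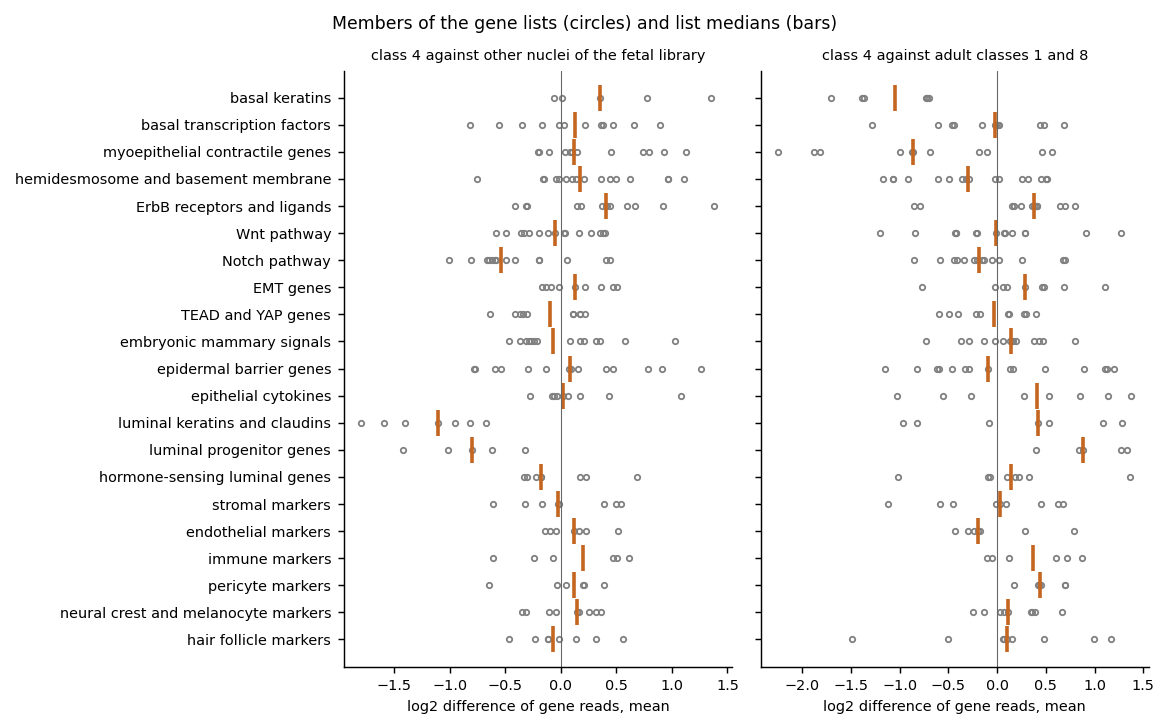
Mean log2 difference of gene reads for the tested members of 21 gene lists (circles) and the list median (orange bar), class 4 against the other fetal nuclei on the left and against adult classes 1 and 8 on the right. On the left the luminal keratins, luminal progenitor and Notch lists lie lowest (medians -1.11, -0.80 and -0.54); on the right the basal keratins and contractile genes lie lowest (medians -1.05 and -0.86).

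Against class 9 alone, 48 genes of 16100 were past the fold higher (0.298%) and 101 lower (0.627%). The split was 99 and 44 after centring on the median, and 81 and 84 with scaling by the reads in promoter and distal regions. Members of the lists among the higher ones were Krt5 (1.02 and 1.41), Nrg1 (1.65 and 1.18), Nipal4 (1.31 and 1.34), Tslp (1.52 and 1.25), Col4a1 (1.71 and 1.24) and Edaradd (1.26 and 1.25). Tagln, transgelin of smooth muscle, was also higher (1.92 and 1.33), as was Krtdap, a secreted protein of differentiating keratinocytes (1.04 and 1.07). Those among the lower ones were Krt18 (-1.58 and -2.08), Krt7 (-1.32 and -2.09), Cldn3 (-2.62 and -1.48), Cldn4 (-1.0005 and -1.25) and Ehf (-1.51 and -1.72). The basal keratin list as a whole had a median of 0.13 over 5 tested members, with Krt14 at -0.07 and 0.32.

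Against class 12, 45 genes of 15909 were higher (0.283%) and 28 lower (0.176%), or 70 and 15 after centring, and no listed gene was among the 45 or the 28. With fetal library 2 left out the split turned, with 1003 higher and 1205 lower. The 2 libraries' differences correlated across genes with r = 0.149, and class 12 had the fewest summed reads of classes 4, 5, 9 and 12 in both libraries. Nrg1 was 0.57 and 0.78 higher in class 4 and Nipal4 0.48 and 0.24 higher. Krt5 was 0.62 and 1.20 higher, and Trp63 differed by -0.17 and 0.05. The luminal keratin and claudin list had a median of 0.05 between these classes.

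Against the adult basal classes 1 and 8 together, 142 genes of 16043 were past the fold higher in every pairing of libraries (0.885%) and 100 lower (0.623%). The split turned with 10 reads expected (86 and 90) and with fetal library 2 left out (377 and 600). The 6 tested basal keratins were all below 0 in every pairing, as were 26.4% of all tested genes, with a median of -1.05 against -0.03 over all genes. Krt5 was at 20.6 and 25.7 CPM in class 4 against 65.0 and 62.1 CPM in the adult basal classes, log2 differences from -1.57 to -1.21. Krt16 (-2.14 to -1.26) was also past the fold, and so was Krt75, of the hair follicle list (-1.98 to -1.01).

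Of the contractile list, 8 of 11 tested members were below 0 in every pairing, against 26.4% of all tested genes, and 2 were past the fold. Oxtr was at 16.5 and 34.1 CPM in class 4 against 116 and 125 CPM in the adult basal classes (-2.78 to -1.71). Myh11 was at 30.9 and 35.4 against 128 and 115 CPM (-1.98 to -1.64), with no overlap between fetal and adult values. Acta2 was at 44.3 and 57.9 against 99.7 and 107 CPM (-1.23 to -0.76), short of the fold in some pairings. Irx4, a basal homeobox factor, was lower (-1.31 to -1.27), and so was Wnt10a, a Wnt ligand (-1.39 to -1.01).

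In the other direction, Sox11, a SOX factor of embryonic tissues, was at 45.3 and 50.5 CPM in class 4 against 8.7 and 8.8 CPM in the adult basal classes (2.14 to 2.30). It was 62.7 and 58.0 CPM in the other fetal nuclei, so its high level was shared by them. Sox11 is in none of the gene lists and was named outside the naming rules. Kit, the stem cell factor receptor of luminal progenitors, was at 31.9 and 27.0 against 9.9 and 11.0 CPM (1.16 to 1.51), and Cldn7 was 1.06 to 1.51 higher. All 5 tested luminal progenitor genes were above 0 in every pairing (median 0.88), against 22.9% of all tested genes. The same 5 were below 0 in both libraries against the other fetal nuclei, where 48.8% of all tested genes were. Tslp was 1.21 to 1.54 higher. The largest mean differences among genes higher in class 4, named after their values were seen, included Tmprss5 (2.44 to 3.57), Pou3f4 (2.34 to 2.74), Apol8 (2.24 to 2.72) and Foxc2 (1.70 to 2.99).

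Open regions were compared over the deposited 1000-base promoter and distal regions. Of 11574 tested promoter regions, 11 were past the fold higher (0.095%) and 140 lower (1.21%), or 45 and 50 after centring on the median. Of 18643 tested distal regions, 360 were higher (1.93%) and 759 lower (4.07%), or 500 and 546 after centring. Without the filter on low reads the split turned, with 2063 higher and 1753 lower. Of the 360, 178 lay inside a gene (49.4%), as did 409 of the 759 lower ones (53.9%). The share over all tested distal regions was not counted, so nothing is read from this. The promoter region chr9:51213325-51214324 at the start of Pou2af1 was first among promoters, at 20.6 and 20.6 CPM in class 4 against 2.8 and 3.9 CPM. It was 2.1 and 4.7 CPM in class 9, 12.7 and 5.5 CPM in class 12, and 16.7 and 12.8 CPM in the adult basal classes. The promoter region of Cav1, chr6:17305503-17306502, was at 51.5 and 45.0 CPM against 17.8 and 20.3 CPM, and at 23.8 and 22.0 CPM in class 12. The other named promoter regions lay near Trim62 (chr4:128881729-128882728), Tslp, Tmem45a (chr16:56885965-56886964) and Brinp1 (chr4:68953798-68954797), the last with log2 differences of 1.47 and 0.93. The regions at Pou2af1 and Trim62 passed the filter on low reads only because class 4's own reads count in it.

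Of the letters before the start of genes, only some of the windows counted are printed. Each is the 250 bases upstream of a RefSeq start (GRCm38.p6), 5′ to 3′ on the gene's strand. Pou2af1 and Cav1 are shown as promoters open in class 4, Krt5 and Acta2 as basal genes, and Cldn3 as a promoter closed in class 4. Capitals mark a match to a searched motif: GGAATG (the TEAD letters CATTCC on the other strand) in Acta2 and CAGGTG (the E-box of the SNAI and ZEB type) in Krt5.
Pou2af1, chr9:51213440-51213689, plus strand: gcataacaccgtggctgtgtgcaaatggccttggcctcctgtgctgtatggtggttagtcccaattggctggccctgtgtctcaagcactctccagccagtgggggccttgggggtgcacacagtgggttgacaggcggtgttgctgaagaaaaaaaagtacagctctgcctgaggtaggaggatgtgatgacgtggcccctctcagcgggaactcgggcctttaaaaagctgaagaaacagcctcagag
Cav1, chr6:17306085-17306334, plus strand: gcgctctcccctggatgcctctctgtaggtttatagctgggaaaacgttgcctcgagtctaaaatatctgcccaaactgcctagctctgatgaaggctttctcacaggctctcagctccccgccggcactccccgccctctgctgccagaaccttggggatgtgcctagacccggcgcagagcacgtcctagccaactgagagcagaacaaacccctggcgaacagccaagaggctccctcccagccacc
Krt5, chr15:101712906-101713155, minus strand: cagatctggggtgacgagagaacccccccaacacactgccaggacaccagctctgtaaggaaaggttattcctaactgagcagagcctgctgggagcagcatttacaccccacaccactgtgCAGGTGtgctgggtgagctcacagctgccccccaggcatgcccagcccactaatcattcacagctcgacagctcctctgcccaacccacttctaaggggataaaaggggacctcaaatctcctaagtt
Acta2, chr19:34255374-34255623, minus strand: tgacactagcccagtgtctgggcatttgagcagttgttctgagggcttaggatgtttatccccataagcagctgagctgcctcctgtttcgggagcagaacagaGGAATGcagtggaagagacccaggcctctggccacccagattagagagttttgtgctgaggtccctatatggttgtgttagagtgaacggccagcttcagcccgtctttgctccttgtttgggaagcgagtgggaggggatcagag
Cldn3, chr5:134985964-134986213, plus strand: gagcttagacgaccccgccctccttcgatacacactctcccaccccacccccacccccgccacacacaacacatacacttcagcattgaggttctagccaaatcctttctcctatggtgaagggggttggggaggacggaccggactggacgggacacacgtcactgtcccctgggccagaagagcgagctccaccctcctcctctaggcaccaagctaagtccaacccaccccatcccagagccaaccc

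The reads in the 1000 bases centred on these starts were counted too. Pou2af1 had 19.6 and 20.3 CPM in class 4 against 2.8 and 3.7 CPM, log2 differences of 2.18 and 1.97. Acta2 had 14.4 and 22.2 CPM against 7.1 and 8.0, differences of 0.85 and 1.27. Cldn3 had 6.2 and 9.7 CPM against 61.9 and 49.2, differences of -2.97 and -2.13. Krt5 had 3 and 20 reads in class 4 and did not pass the filter on low reads. Among starts not printed, the basal Krt14 start had 2.1 and 4.5 CPM against 7.1 and 4.6, differences of -1.17 and -0.01. A second Cav1 start differed by only 0.72 and 0.15, and the Nipal4 start by 0.31 and 0.59. The luminal Krt18 (-0.78 and -0.72) and Krt8 (-0.39 and -0.35) starts were lower but short of the fold.

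Matches were counted on both strands in all 32851 windows of that length. A gene was counted once if any of its windows held the letters, so counts of genes and shares of windows are unlike units. TGANTCA, the AP-1 letters, were in 6.75% of windows and in 0 of the 14 genes past the fold higher that have a window. CATGNNNNNNCATG, the p53 family letters, were in 0.49% and also in 0 of 14. CATTCC was in 12.6% and in 3 of 14, and CAGGTG in 17.2% and 3 of 14. Among the 50 lower genes with a window, CAGGTG was in 12 and CAGGAAG, the ETS letters, in 7 (10.8% of all windows). A window without these letters says nothing of the factor, and distal regions, where most calls lie, could not be read because no genome sequence was used here.

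The 6 named distal regions had the largest smaller-of-2 differences with at least 20 class 4 reads in each library. The other nuclei of fetal library 1 held only 10 to 20 reads at each of them. All 6 passed the filter of 5 expected reads only because class 4's own reads count in it, so their height in class 4 is partly set by the choice. The first, chr1:158295893-158296892 inside Brinp2, was at 20.6 and 23.2 CPM in class 4 against 2.8 and 2.4 CPM, and at only 1.2 and 3.5 CPM in the adult basal classes. By contrast chr8:36640101-36641100, inside Dlc1, was at 27.8 and 24.1 CPM against 4.0 and 4.4, and at 32.8 and 31.0 CPM in the adult basal classes. The region chr3:33539754-33540753 lay 259045 bases from the nearest listed gene, Ttc14, and was at 24.7 and 19.0 CPM against 2.8 and 2.6. The other 3 were chr9:83830449-83831448 (3203 bases from Ttk), chr4:24882762-24883761 (14322 bases from Ndufaf4) and chr8:106769122-106770121 (inside Tango6). In class 9 these 6 regions were between 0.71 and 4.2 CPM. Class 12 was higher, between 4.6 and 14.3 CPM. Against class 12 only chr4:24882762-24883761 and chr8:106769122-106770121 were past the fold.

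At the marker genes, Nrg1 spans 94 distal regions of which 12 were tested and 2 were past the fold higher, against 1.93% of all tested distal regions. The region chr8:32218549-32219548 had 38.1 and 44.1 CPM in class 4, 7.3 and 11.5 CPM in the other fetal nuclei, 22.2 and 27.1 CPM in class 12, 51.4 and 40.3 CPM in the adult basal classes and 0.77 and 0.98 CPM in the adult luminal classes. The region chr8:32109041-32110040 had 17.5 and 14.5 CPM against 6.1 and 3.8. In the deposited co-accessibility scores their strongest links, 0.22 and 0.15, went to the same promoter region inside Nrg1, 300819 and 191311 bases away. The distal region of Nipal4, chr11:46160239-46161238, had 18.5 and 9.7 CPM against 3.6 and 2.7, and its strongest link, 0.60, went to the promoter region of Nipal4, 5608 bases away. Which nuclei those links were computed over is not given in the sources used here.

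At Trp63 neither of the 2 tested distal regions, of 26, was past the fold, and at Krt14 1 of 2 was past the fold lower, from 0 and 3 class 4 reads. Col4a2 and Dusp6 were chosen for mention after their values were seen, as the nearest genes of 3 and 4 distal regions past the fold higher, among the most for any gene. Of the 9 tested distal regions of Col4a2, a type IV collagen gene, 3 were past the fold higher. Each had its strongest link to the same promoter region, chr8:11312078-11313077. That region overlaps Col4a1, and only 1 gene was named per linked region, so it may also overlap Col4a2. Dusp6 was also the nearest gene of 1 region past the fold lower. The higher region closest to Dusp6, a phosphatase of ERK induced by growth factor signals, was at 43.2 and 46.6 CPM against 17.0 and 20.4, and at 10.5 and 16.3 CPM in the adult basal classes. At Ehf, 1 of 3 tested distal regions was past the fold lower. Over all tested distal regions, 1.93% were past the fold higher and 4.07% lower, and the counts at single genes are too small to be read against these shares.

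The same distal regions were looked up in the adult libraries, which share no nuclei with the fetal ones, in the comparison of basal classes 1 and 8 with luminal classes 2, 3, 7 and 11. There 2821 of 36122 regions were past the fold higher in basal nuclei (7.81%) and 8289 lower (22.9%). Of the 360 regions higher in class 4, 245 were tested in the adult, of which 149 (60.8%) were past the fold higher in adult basal nuclei and 4 (1.63%) lower. Over all 14861 regions tested in both, these shares were 11.0% and 9.42%. Of the 632 regions lower in class 4 and tested in the adult, 257 (40.7%) were past the fold lower in adult basal nuclei and 3 (0.475%) higher. The median adult log2 difference was 1.61 for the regions higher in class 4, -1.07 for the lower ones and -0.04 over all. These are counts over regions, which are not replicates, and no test was made. The adult classes came from the same deposited assignment, made from accessibility, so the adult comparison is not an independent check. Among nuclei at or above the median depth the 60.8% became 43.8%, and the direction stayed the same. With class 10 added to the adult luminal classes the shares were 59.6% and 40.1%.

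**Figure D5:**
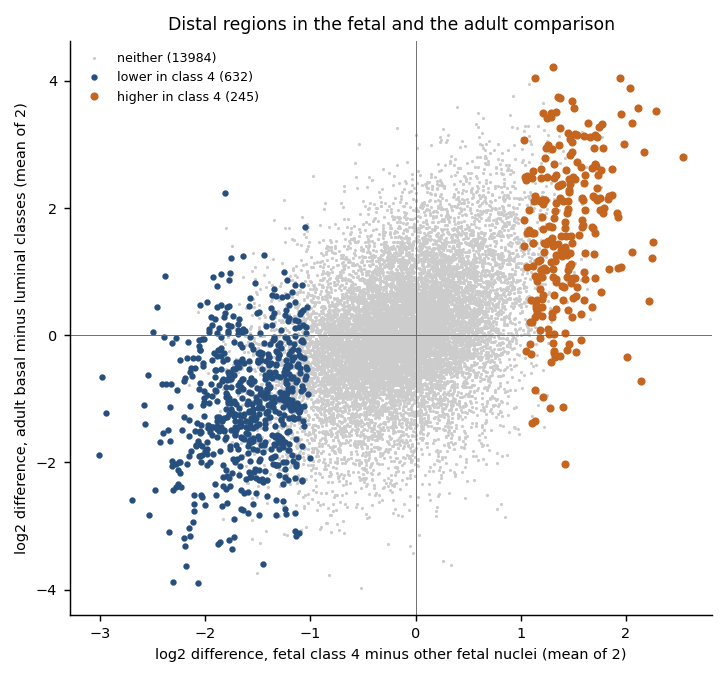
Mean log2 difference of distal region reads between fetal class 4 and the other fetal nuclei (x axis) and between adult basal classes 1 and 8 and adult luminal classes (y axis) for 14861 regions tested in both; orange points are the 245 regions higher in class 4, blue the 632 lower. Most orange points lie above 0 on the y axis (median 1.61) and most blue points below it (median -1.07).

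Against class 9 alone, 517 of 20287 distal regions were past the fold higher in class 4 (2.55%) and 1146 lower (5.65%). Against class 12, 720 of 20985 were higher (3.43%) and 275 lower (1.31%). Against the adult basal classes, 634 of 21549 were higher in every pairing of libraries (2.94%) and 1754 lower (8.14%), or 925 and 1177 after centring. Without the filter on low reads (3952 and 3805) and with adult library 2 left out (2045 and 1964) that split turned.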

How the data were processed

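Deposited files give reads of each nucleus as genome intervals (mm10) with a barcode, 1000-base promoter and distal regions, and a table of nuclei with motif scores, depth and class. Per the submitters' processing notes, Bowtie2, MACS2 and bedtools were used, with no versions or roles. The motif deviation scores and the co-accessibility scores are the authors' deposited score values; the score table's file carries the name chromVAR and that of the links Cicero. The depth of a nucleus is the authors' deposited count of its reads. The clustering method, motif collection and treatment of doublets are not given in the sources used here, and no doublet caller was run. A gene accessibility table with 7846 columns that name no sample was not used.

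Reads of each library's nuclei were counted over genes (RefSeq spans, mm10, 2000 bases on either side; 21887 genes), promoter regions and distal regions with Python 3.11.15, numpy 2.4.6 and pandas 2.3.3, then summed per library and class and scaled to CPM over all reads of those nuclei. Differences are of log2(CPM + 2), which understates the change of low features. A feature was kept where at least 5 reads were expected in class 4 of each fetal library. The expected reads came from its level over class 4 and the compared nuclei together. A feature high in class 4 can therefore pass through its own class 4 reads. Past the fold means a log2 difference of at least 1 the same way in both fetal libraries (in all 4 fetal by adult pairings for the adult basal classes); for motifs, a difference of mean scores of at least 1 unit. The method was tried on simulated counts with counting error only, drawn from 1 rate per feature for all classes and libraries. The changed features there lay well above the filter, so calls near the filter and spread between libraries were not tried.

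Replicates are labelled biological, but nothing more says how they were separated. No p-values are given, since the classes came from clustering these nuclei. The class, gene lists, motif lists and naming rules were chosen with earlier results of these data known. Named were the 4 markers; list members past the fold, up to 4 per list; the 10 highest and 10 lowest genes with at least 50 reads in class 4, or as many expected there from the compared nuclei; 6 distal and 6 promoter regions with at least 20 reads in each library; and the 10 highest and lowest motifs. The rule for list members was widened to well-known members short of the fold, given as values. Promoter letters are RefSeq's (GRCm38.p6). Alternatives were the pseudocount, the filter, scaling, centring, depth, single libraries, gene spans, read midpoints, the averaging of classes and, chosen after seeing the data, class 10 among the adult luminal classes.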

Additional observations from a re-analysis of the deposited data

Results flagged for a closer look

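In 20 named motifs and 24 named genes, the fetal difference between class 4 and class 9 was set beside the adult difference between basal and luminal classes. Of these, 9 went opposite ways in every library. The share over all motifs and genes was not counted. The 20 motifs were the highest and lowest of class 4 against the other fetal nuclei, which include class 9. Their fetal direction was thus largely set by the choice, and nothing is read from the count. The difference between stages was not tested. The 8 motifs among them were of the AP-1 type, which was higher in fetal class 4 than in class 9 and lower in adult basal classes 1 and 8 than in adult luminal classes. Fos differed by 1.02 on average in the fetal libraries (1.10 and 0.94) and by -0.72 and -1.34 in the adult ones. Smarcc1 differed by 1.13 in the fetal libraries and by -0.77 and -1.30 in the adult ones. The fetal means of the others were 1.02 for Fosb, 0.95 for Nfe2l2, 0.85 for Bach1, 0.78 for Bach2, 0.71 for Junb and 0.57 for Jund, with adult differences from -1.15 to -0.52. Motifs of this type have similar sequences, so these scores do not count separately. The adult luminal side pools classes 2, 3, 7 and 11, of which classes 2 and 11 had the highest Fos scores.

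The gene was Gm30732 (chr2:131525988-131530344), a predicted gene, with a mean log2 difference of 1.35 in the fetal libraries (1.40 and 1.31) and of -0.96 and -0.70 in the adult ones. It was at 32.9 and 37.3 CPM in class 4, 11.3 and 13.8 in class 9, 7.4 and 8.8 in adult basal classes and 16.4 and 15.5 in adult luminal classes.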

How the results depend on the processing

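No paired analysis was possible because the results come from no test; class 4 and the other fetal nuclei were already set against each other within each fetal library. Of 169 alternative values of the main counts and shares, 66 stayed within 1.5 times (or, for shares, within the error) and 103 did not; the cause was not tested except where fewer features or libraries enter by construction. The share of nuclei with a library left out stays within the error by construction. Counts are given as higher and lower.

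With a pseudocount of 0.5 CPM the counts against the other fetal nuclei were 36 and 114 genes, 27 and 255 promoter regions and 548 and 1236 distal regions, and against class 12, 84 and 66 genes. With 5 CPM they were 8 and 30 genes, 1 and 33 promoter regions and 140 and 215 distal regions against the other fetal nuclei, 22 and 43 genes against class 9, 17 and 7 against class 12, and 66 and 63 genes and 318 and 879 distal regions against the adult basal classes; the shares of distal regions that went the same way in the adult were 69.1% and 33.0%. With 10 reads expected, 11 genes were higher, 4 and 70 promoter regions and 64 and 296 distal regions against the other fetal nuclei, 23 and 15 genes against class 12, and 86 genes higher and 112 and 582 distal regions against the adult basal classes, with a share of 50%. Without a filter, 37 genes and 54 promoter regions were higher, 2063 and 1753 distal regions, 78 genes higher against class 9, 119 and 61 genes against class 12, and 3952 and 3805 distal regions against the adult basal classes. Scaling by region reads gave 34 genes and 19 promoter regions higher, 81 genes higher against class 9 and 70 against class 12. Centring gave 52 and 31 genes, 45 and 50 promoter regions, 99 and 44 genes against class 9, 70 and 15 against class 12, and shares of 70.7% and 25.4%. Averaging the classes gave 46 genes higher. In nuclei at or above the median depth, 7 promoter regions were higher, 50 genes lower than in class 12, 989 distal regions lower than in adult basal classes and 19 motifs lower, with shares of 43.8% and 46.7%.

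Leaving out a library loosens the rule that both must pass. The range over the left-out libraries was then 138 to 236 and 291 to 1117 genes, 138 to 177 and 664 to 1514 promoter regions, and 1585 to 3696 and 3305 to 4708 distal regions against the other fetal nuclei. It was 238 to 420 and 343 to 1185 genes against class 9, 395 to 1003 and 310 to 1205 against class 12, and 312 to 597 and 191 to 600 genes and 766 to 4498 and 1964 to 5758 distal regions against the adult basal classes. Motifs numbered 12 to 13 and 12 to 16, and class 4 made up 14.97 to 19.94% of fetal nuclei. Leaving out an adult library gave shares of 70.2 to 71.7% and 45.6 to 52.7%. Alternatives for these shares, and the left-out libraries for the share of nuclei, were chosen after seeing the data.

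Of 264 alternative values of 24 named genes, 221 moved by less than 1 SD of the libraries, 42 by more, and 1 changed sign: Tslp over the gene span alone (-0.27 against 1.08). Leaving out a library or changing the filter cannot move a value by 1 SD. Those settings count among the 221 by construction, so the count is no measure of stability. Class 4 of fetal library 1 holds 971201 reads, and for a feature at the filter only about 5 reads are expected there.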
